A study of Mus musculus with 8 samples.

Results

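The genes described here are 10 genes of contractile stroma, the myofibroblasts, smooth muscle cells and pericytes of a tumour: Acta2, Tagln, Cnn1, Myl9, Myh11, Actg2, Des, Rgs5, Cspg4 and Notch3. They were taken by gene name from the count table, which lists 54532 genes, and each of the 10 matched exactly 1 row. All 10 passed the filter on low counts and were among the 18238 genes tested. The libraries came from orthotopic pancreatic tumours of C57BL/6 mice. The tumours were grown from KPC cells, a cultured line of mouse pancreatic ductal adenocarcinoma, and sex, age and number of animals are not given in the labels. The TLQP21 group held 4 tumour libraries from mice treated for 2 weeks with TLQP21, a peptide derived from the protein VGF. The Saline group held 4 tumour libraries from mice treated with saline for the same 2 weeks. The design text counts the 2 weeks from implantation of the cells. The series asks which transcripts differ in tumours whose growth, by the submitters' account, was reduced by the peptide. The labels name cancer cells as the cell type, but tumour tissue was sequenced, so each library mixes cancer cells with stroma, vessels, immune cells and remnants of pancreas. In such bulk tissue, fewer cells of a type and less RNA per cell cannot be told apart.

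Contractile stroma surrounds the ducts and vessels of a pancreatic tumour. Fibroblasts and pancreatic stellate cells become myofibroblasts by building stress fibres that contain smooth muscle actin, while vascular smooth muscle cells and pericytes wrap arteries and capillaries. Many of their contractile genes are switched on by serum response factor (SRF) with its partners of the myocardin family, which bind a short element called the CArG box. The 10 genes mark these cells to different degrees, since Acta2, Tagln, Cnn1 and Myl9 are shared by myofibroblasts and smooth muscle, Myh11, Actg2 and Des lean towards mature or visceral muscle, and Rgs5, Cspg4 and Notch3 towards the vessel wall.

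Promoter windows are shown for Acta2 and Myl9, whose levels followed each other most closely across the libraries, and for Rgs5, which followed neither of them. The windows were taken from RefSeq on GRCm38.p6 and run from 250 bases before to 50 bases after the annotated start, 5′ to 3′ on the strand of the gene. Capitals mark 10-base stretches that match the CArG box with at most 1 mismatch. The box reads the same on both strands, and overlapping matches were merged. The windows are chr19:34255324-34255623 on the minus strand for Acta2, chr2:156775214-156775513 on the plus strand for Myl9 and chr1:169655251-169655550 on the plus strand for Rgs5.
Acta2: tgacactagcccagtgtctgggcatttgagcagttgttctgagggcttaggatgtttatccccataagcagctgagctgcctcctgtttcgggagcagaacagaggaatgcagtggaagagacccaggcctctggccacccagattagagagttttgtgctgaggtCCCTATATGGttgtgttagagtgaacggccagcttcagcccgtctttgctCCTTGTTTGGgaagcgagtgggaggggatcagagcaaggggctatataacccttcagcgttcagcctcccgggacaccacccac
Myl9: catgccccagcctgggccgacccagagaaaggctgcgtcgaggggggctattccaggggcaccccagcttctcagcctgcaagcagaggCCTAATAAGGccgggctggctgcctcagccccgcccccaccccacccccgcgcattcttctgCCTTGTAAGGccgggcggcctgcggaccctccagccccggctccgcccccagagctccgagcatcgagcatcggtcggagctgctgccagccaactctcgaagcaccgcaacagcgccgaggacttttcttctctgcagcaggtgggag
Rgs5: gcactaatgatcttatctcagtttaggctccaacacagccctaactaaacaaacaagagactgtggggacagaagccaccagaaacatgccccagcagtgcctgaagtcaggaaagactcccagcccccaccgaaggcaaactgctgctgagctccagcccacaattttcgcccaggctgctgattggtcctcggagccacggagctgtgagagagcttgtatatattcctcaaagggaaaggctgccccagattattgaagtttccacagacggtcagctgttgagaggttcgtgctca

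The Acta2 window held 2 matches with 1 mismatch each, CCCTATATGG starting 84 bases and CCTTGTTTGG starting 34 bases before the annotated start. The Myl9 window held CCTAATAAGG, an exact match 161 bases before the start, and CCTTGTAAGG, with 1 mismatch, 99 bases before it. No match lay in the Rgs5 window. Windows were available for 7 of the 10 genes. Among the other 4, Cspg4 held 2 overlapping matches with 1 mismatch, and the windows of Cnn1, Des and Notch3 held none. Of 32851 mouse promoter windows of 300 bases, 535 (1.63%) held an exact CArG box and 6936 (21.1%) a match with at most 1 mismatch, so that the looser match is common. A match describes these letters alone.

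The libraries held 29027480 to 33536087 counts in the TLQP21 group and 28358465 to 28963457 in the Saline group. Each TLQP21 library was deeper than each Saline library, and levels below are therefore CPM, counts scaled to a common library size after TMM adjustment. Libraries 1 and 2 of each group carried Xist, the transcript that silences an X chromosome (9960 to 10625 reads), and libraries 3 and 4 carried Y-linked transcripts instead (2027 to 2247 reads), a split that the labels do not mention. It divides both treatments equally. The pairs are called Xist libraries and Y libraries here. Saline 2 stood apart by liver transcripts, with 72633 reads of albumin (Alb) against 2 to 13 in the other libraries. Saline 4 had the most RNA of acinar genes, digestive enzymes of normal pancreas, at 55390 CPM summed over 12 genes, against 11360 to 30810 in the TLQP21 libraries and 11930 to 24810 in the other Saline libraries.

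Together the 10 genes gave 346 to 391 CPM in the TLQP21 libraries and 270.3 to 359.9 CPM in the Saline libraries. Levels can be compared between genes only per length, as CPM per kilobase of exon. On that scale Acta2, alpha smooth muscle actin, was the highest in every library, at 79.96 ± 6.70 in TLQP21 tumours and 64.0 ± 11.9 in Saline tumours (SD, n = 4 each). Myl9, a regulatory light chain of smooth muscle myosin, came next at 27.2 ± 4.70 in TLQP21 and 23.3 ± 3.40 in Saline. Rgs5, a regulator of G-protein signalling enriched in pericytes, followed at 20.04 ± 4.06 and 17.9 ± 2.75 in TLQP21 and Saline tumours. The ranges of Myl9 and Rgs5 overlapped, although Myl9 was higher in 7 of 8 libraries. Actg2, the gamma actin of visceral smooth muscle, lay at 8.73 ± 0.445 in TLQP21 and 6.70 ± 1.61 in Saline. Des, the muscle intermediate filament desmin, was close to it at 6.61 ± 0.984 in TLQP21 and 6.47 ± 1.14 in Saline. These neighbours overlapped too, with Actg2 higher in 7 of 8 libraries. Notch3, Cnn1, Myh11 and Cspg4 followed with group means between 1.80 and 2.49 CPM per kilobase. Neighbours in that order overlapped, and the upper of each pair was higher in only 5, 6 and 5 of 8 libraries. Breaks without any overlap lay between Acta2 and Myl9, Rgs5 and Actg2, Des and Notch3, and Cspg4 and Tagln.

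**Figure D1:**
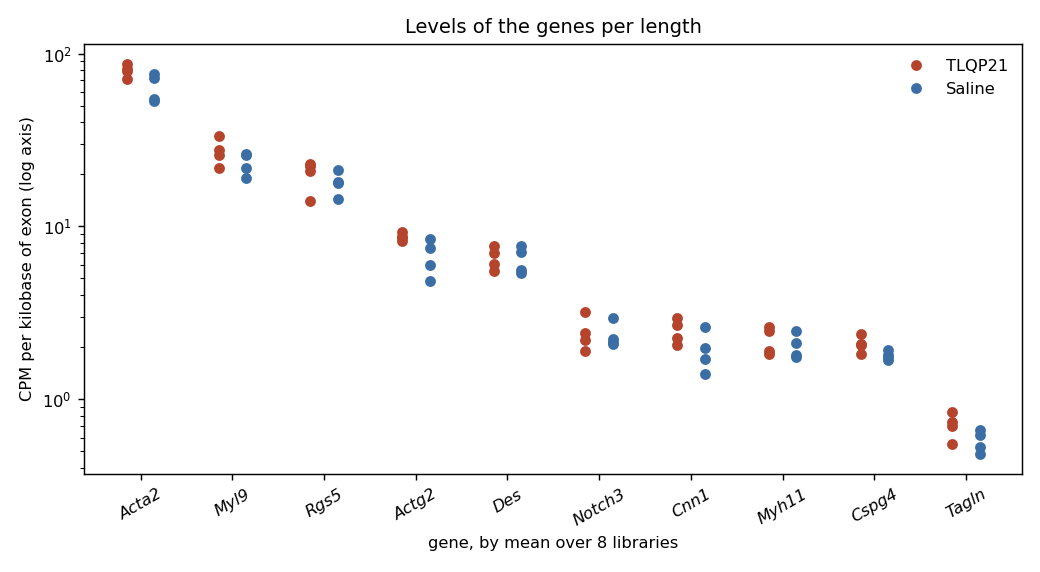
Levels of the 10 genes in CPM per kilobase of exon (log axis), ordered by the mean over 8 libraries, with 1 point per library, TLQP21 left of Saline. Acta2 lay between 53.2 and 87.6 in all libraries, above every value of the other genes, and Tagln was the lowest at 0.479 to 0.843.

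Tagln, which encodes the actin-binding protein transgelin (SM22-alpha), was last at 0.708 ± 0.121 CPM per kilobase in TLQP21 tumours and 0.574 ± 0.0851 in Saline tumours. It had 33 to 51 reads in the TLQP21 libraries and 28 to 36 in the Saline libraries. Of its 1988 exon bases on chromosome 9, 1349 (67.9%) also lie in exons on the opposite strand, 1241 of them in Gm48529 and 108 in Pcsk7, by the GENCODE M21 annotation. Gm48529 had 25 to 41 reads in TLQP21 libraries and 19 to 34 in Saline libraries. Whether the counting used strand is not given in the sources used here, and reads over bases shared by opposite genes may have been left uncounted or given to either one. The low level of Tagln therefore cannot be read as a low level of its RNA. Des shared 5.86% of its exon bases with an antisense gene that had no reads, and Notch3 shared 6.03% with one that had 1 to 9 reads per library. The other 7 genes shared none.

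The first group of genes, shared by myofibroblasts and smooth muscle, held the single gene with a 95% interval above 0. Acta2 (ENSMUSG00000035783, chromosome 19, 34241090 to 34255336, minus strand) builds the contractile actin filaments by which myofibroblasts are recognised. It had 142, 145, 156 and 127 CPM in TLQP21 libraries 1 to 4, against 97.0, 94.8, 129 and 136 CPM in Saline libraries 1 to 4. Of the TLQP21 libraries 3 lay above the highest Saline library, TLQP21 4 lay below Saline 3 and Saline 4, and the groups overlapped. The means were 142 ± 11.9 CPM in TLQP21 and 114 ± 21.2 CPM in Saline (SD, n = 4 each), a 1.25-fold difference with a 95% interval from 1.01-fold to 1.54-fold (log2 0.32, SE 0.134). The unadjusted p in edgeR's quasi-likelihood test was 0.0387. Adjusted over all genes tested it was 0.9999, as for each of the 10 genes, so no member passed the threshold of 0.05.

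Cnn1 (ENSMUSG00000001349, chromosome 9, 22099216 to 22109630, plus strand) encodes calponin 1, which binds actin and restrains the myosin motor. Its levels were 6.19, 8.06, 7.37 and 5.65 CPM in TLQP21 libraries 1 to 4, against 4.70, 5.43, 3.84 and 7.15 CPM in Saline libraries 1 to 4. Saline 4 lay among the TLQP21 values, and the other 3 Saline libraries lay below all of them. The fold change was 1.29, with a 95% interval from 0.918 to 1.82 (log2 0.37, SE 0.221), and without Saline 3 the log2 fold change was 0.25.

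Myl9 (ENSMUSG00000067818, chromosome 2, 156775420 to 156781658, plus strand) is phosphorylated to start contraction. It had 30.2, 32.2, 38.6 and 25.5 CPM in TLQP21 libraries 1 to 4, against 25.4, 22.3, 30.6 and 29.99 CPM in Saline libraries 1 to 4. Only TLQP21 2 and TLQP21 3 exceeded all Saline libraries, and the fold change was 1.17 (95% interval 0.924 to 1.48). Its log2 fold change of 0.22 was 0.12 without TLQP21 3 and 0.14 without Saline 2. Tagln (ENSMUSG00000032085, chromosome 9, 45929619 to 45936058, minus strand) had 1.68, 1.47, 1.10 and 1.39 CPM in TLQP21 libraries 1 to 4, against 0.953, 1.05, 1.24 and 1.324 CPM in Saline libraries 1 to 4. TLQP21 3 lay within the Saline range, and the interval of the 1.23-fold difference ran from 0.859 to 1.77.

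Among the genes of mature and visceral muscle, Actg2 had the tightest TLQP21 group and Myh11 and Des had log2 fold changes of 0.11 and 0.03. Actg2 (ENSMUSG00000059430, chromosome 6, 83512905 to 83536265, minus strand) had 12.8, 14.5, 13.6 and 13.5 CPM in TLQP21 libraries 1 to 4, against 11.6, 9.31, 7.55 and 13.2 CPM in Saline libraries 1 to 4. The TLQP21 libraries lay close together, with a coefficient of variation of 5.10% against 24.0% in Saline, and only Saline 4 reached them. The fold change was 1.30, with a 95% interval from 0.991 to 1.71 (log2 0.38, SE 0.177). The unadjusted p in edgeR's quasi-likelihood test was 0.0567. Actg2 and Acta2 are close relatives, but their annotated transcripts shared no stretch of 50 bases with each other. Acta2 shared 7 of its 2146 such stretches with the cytoplasmic actin Actg1, and Actg2 shared none with any of the other 5 actins.

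Myh11 (ENSMUSG00000018830, chromosome 16, 14194535 to 14291372, minus strand) encodes the smooth muscle myosin heavy chain, the marker most restricted to differentiated smooth muscle. It had 14.4, 18.9, 19.99 and 14.0 CPM in TLQP21 libraries 1 to 4, against 13.3, 13.8, 16.1 and 19.0 CPM in Saline libraries 1 to 4. High and low values occurred in both groups, and the log2 fold change of 0.11 had an interval from -0.26 to 0.49. It was 0.02 without TLQP21 3, 0.05 without Saline 1 or TLQP21 2 and 0.06 without Saline 2. It was 0.18 without TLQP21 1, 0.19 without TLQP21 4 and 0.22 without Saline 4. Des (ENSMUSG00000026208, chromosome 1, 75360329 to 75368579, plus strand) had 29.1, 22.9, 26.4 and 20.8 CPM in TLQP21 libraries 1 to 4, against 20.2, 21.2, 29.1 and 26.7 CPM in Saline libraries 1 to 4. The groups covered nearly the same range, with means of 24.8 ± 3.69 CPM in TLQP21 and 24.3 ± 4.30 CPM in Saline (1.02-fold, interval 0.803 to 1.30). Its log2 fold change lay below 0 without Saline 1 (-0.05), Saline 2 (-0.03), TLQP21 1 (-0.06) or TLQP21 3 (-0.001), and was highest without Saline 3 (0.13).

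Of the vessel-wall genes, Cspg4 showed the steadiest levels. Cspg4 (ENSMUSG00000032911, chromosome 9, 56865033 to 56899870, plus strand) encodes NG2, a membrane proteoglycan of pericytes. Its levels were 24.8, 28.4, 24.7 and 21.9 CPM in TLQP21 libraries 1 to 4, against 22.9, 20.2, 21 and 21.6 CPM in Saline libraries 1 to 4. The groups overlapped through TLQP21 4 and Saline 1 alone, and the 1.16-fold difference had an interval from 0.985 to 1.37 (log2 0.22, SE 0.107). Its unadjusted p by edgeR was 0.0702.

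Rgs5 (ENSMUSG00000026678, chromosome 1, 169655501 to 169695813, plus strand) had 104, 95.2, 63.99 and 101 CPM in TLQP21 libraries 1 to 4, against 96.2, 65.6, 82.4 and 81.3 CPM in Saline libraries 1 to 4. TLQP21 3, which had the highest Acta2, Myl9 and Myh11, had the lowest Rgs5 of all 8 libraries. The 1.12-fold difference had an interval from 0.867 to 1.45, and the log2 fold change of 0.16 depended on single libraries. It was 0.30 without TLQP21 3 and 0.26 without Saline 1, but 0.07 without Saline 2, 0.09 without TLQP21 1 and 0.02 without both Saline 2 and TLQP21 4. Notch3 (ENSMUSG00000038146, chromosome 17, 32120820 to 32166880, minus strand) encodes the Notch receptor of vascular smooth muscle and pericytes. It had 25.9, 17.8, 19.5 and 15.4 CPM in TLQP21 libraries 1 to 4, against 17.4, 16.7, 17.9 and 23.8 CPM in Saline libraries 1 to 4. The highest and the lowest library were both of the TLQP21 group, and the 1.04-fold difference had an interval from 0.784 to 1.37. Without TLQP21 1 the log2 fold change was -0.11, and without Saline 2 it was -0.004, but it was 0.18 without Saline 4 and 0.15 without TLQP21 4.

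**Figure D2:**
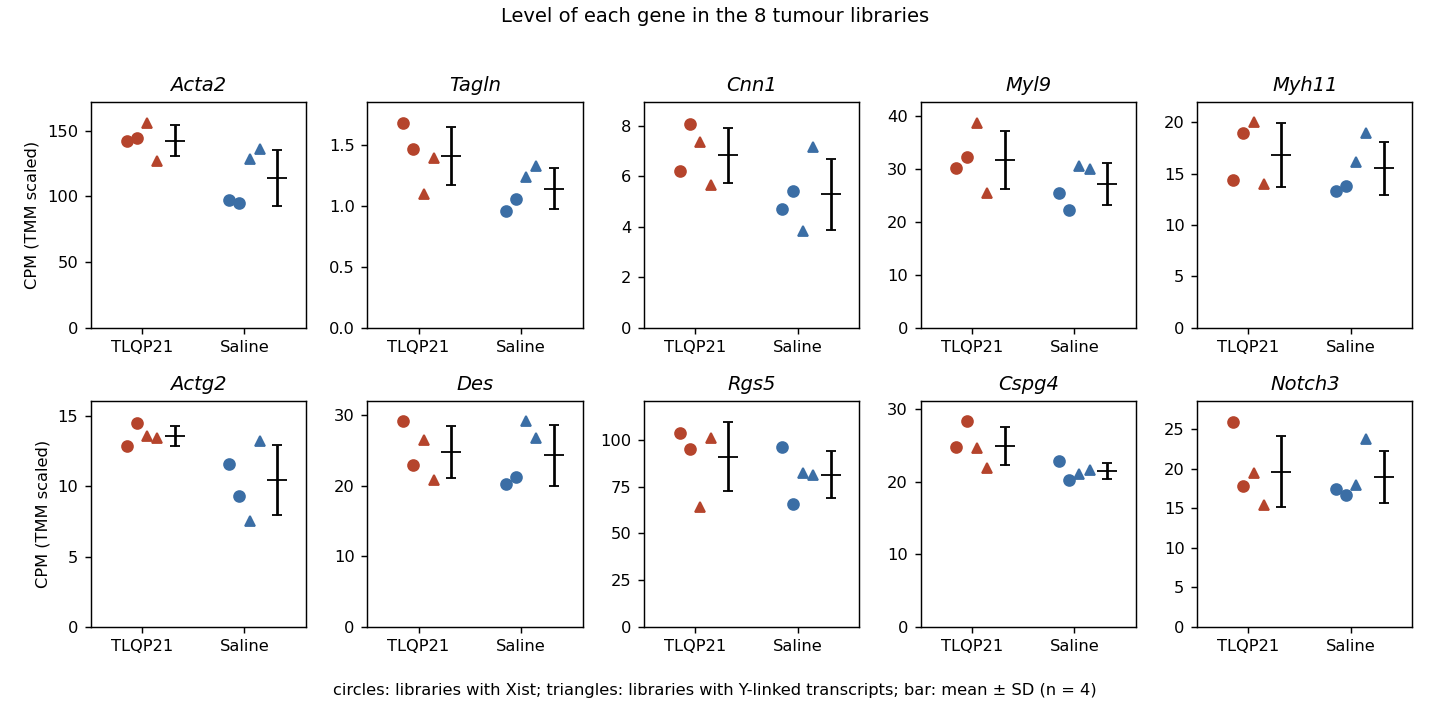
CPM (TMM scaled) of each gene in 4 TLQP21 and 4 Saline libraries, with circles for Xist libraries, triangles for Y libraries and bars for the mean ± SD. The groups overlap for all 10 genes, and in Acta2 the 2 low Saline points at 97.0 and 94.8 CPM are both Xist libraries.

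Over all 10 genes the fold changes lay above 0, between 0.03 and 0.38 on the log2 scale, with a median of 0.22 against 0.002 over all genes tested. Of all genes, 50.6% lay above 0. The 10 genes share libraries and cell types and are not independent, so that their agreement in sign is a description. By edgeR's quasi-likelihood test, 0 of the 10 genes passed, as did 0% of all genes, and 1 of 10, Acta2, had an unadjusted p under 0.05 with a higher mean in TLQP21, against 0.795% of all genes. DESeq2 likewise called 0 of the 10 (0.0192% of all genes) and gave 2, Acta2 and Actg2, an unadjusted p under 0.05 (0.615% of all genes, higher). Voom of limma, run with a quality weight for each library, called 0 of 10 (0.00548% of all genes). It gave 6 of the 10 an unadjusted p under 0.05 (3.98% of all genes, higher), with a median log2 fold change of 0.35. Its weights were 0.999, 4.30, 1.03 and 0.187 for TLQP21 libraries 1 to 4 and 1.82, 1.80, 0.625 and 0.590 for Saline libraries 1 to 4, so the TLQP21 library with the lowest mean level of these genes counted least.

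For 0 of 10 genes the groups were free of overlap, against 0.811% of all genes that were higher in TLQP21 without overlap. With 1 library left out, more genes separate in general, and each count is given with the share of all genes that were higher in TLQP21 without overlap in the same libraries. Without Saline 4 the count was 2 of 10 (Cnn1 and Actg2), against 1.9% of all genes, and without TLQP21 4 it was 2 (Acta2 and Cspg4), against 2.34%. It was 1 without Saline 1 (Cspg4, against 2.0%), without TLQP21 1 (Actg2, against 3.04%) and without TLQP21 3 (Tagln, against 1.59%). It was 0 without Saline 2 (1.54%), Saline 3 (2.47%) or TLQP21 2 (1.26%). With all libraries it was 1 (Actg2) by upper-quartile scaling (1.1%) and by library totals (1.01%), and 0 by RLE scaling (0.801%). All 10 intervals had an upper end below a 2-fold increase, and 9 included no difference.

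**Figure D3:**
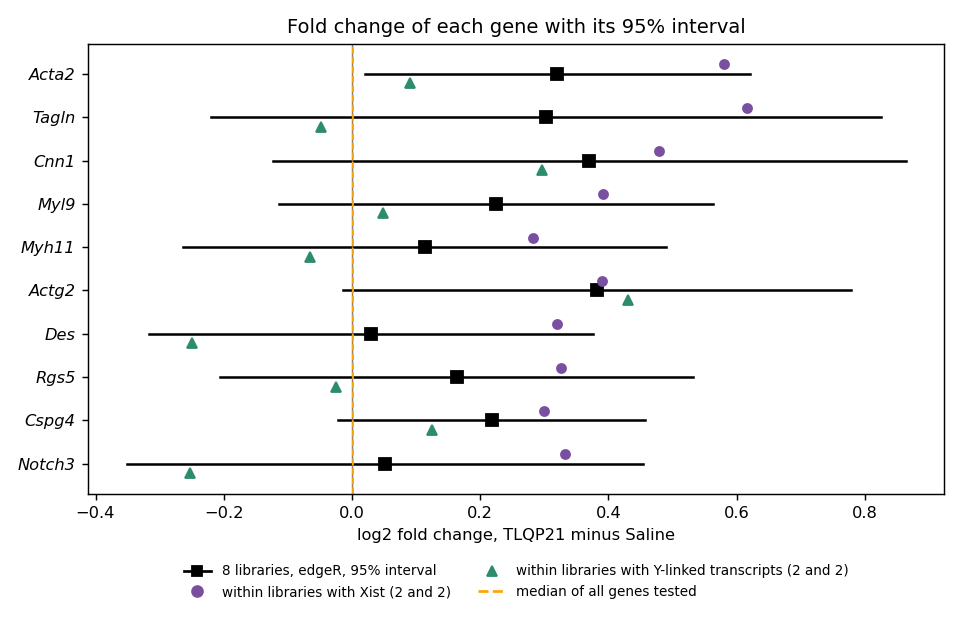
Log2 fold changes, TLQP21 minus Saline, of the 10 genes with 95% intervals from edgeR (squares, n = 4 per group) and the log2 ratios among Xist libraries (circles) and among Y libraries (triangles), with 2 libraries per treatment in each. All circles lie right of 0, between 0.28 and 0.62, while the triangles run from -0.25 to 0.43 around a median of 0.01.

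The log2 ratios were computed for each kind of library alone. Among Xist libraries all 10 genes had log2 ratios above 0 (48.9% of all genes did), from 0.28 for Myh11 to 0.62 for Tagln, with a median of 0.36. Among Y libraries 5 of 10 genes lay above 0 (50.9% of all genes did), and the median was 0.01. Actg2 (0.39 among Xist and 0.43 among Y libraries) and Cnn1 (0.48 and 0.30) had similar ratios in both, and Cspg4 had 0.30 among Xist and 0.13 among Y libraries. Acta2 had 0.58 among Xist but 0.09 among Y libraries. Des (0.32 and -0.25) and Notch3 (0.33 and -0.25) differed in sign, as did Tagln (0.62 and -0.05), Myh11 (0.28 and -0.07) and Rgs5 (0.33 and -0.02). The difference of the 2 ratios was tested for each gene as an interaction of treatment and split in edgeR, chosen after seeing the data. Its smallest unadjusted p was 0.0258, for Acta2 (log2 difference -0.48, SE 0.177), and the adjusted p was 0.8415 or more for all 10 genes. With 2 libraries per treatment in each kind, an unequal treatment difference was therefore not established, and neither was an equal one.

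Read by library, the 10 genes ranked the libraries as follows. TLQP21 1 was above the 8-library mean for 9 of 10 genes, TLQP21 2 and TLQP21 3 for 8 each, and TLQP21 4 for 4. Saline 4 was above it for 8, Saline 3 for 4, Saline 1 for 1 and Saline 2 for 0. The highest value of every gene was in TLQP21 1, 2 or 3, although Des was nearly tied, at 29.11 CPM in TLQP21 1 and 29.1 in Saline 3. No share over all genes is given beside these counts, so they are a description. By these counts TLQP21 4 and Saline 4 each stood nearer to the other treatment than to their own. This did not hold for every gene. TLQP21 4 lay above all Saline libraries for Actg2, Tagln and Rgs5, and Saline 4 lay below all TLQP21 libraries for Cspg4. Saline 4, with the highest acinar sum, also had the highest summed level of 16 fibroblast genes, at 12080 CPM against 6576 to 8920 in the TLQP21 libraries and 6056 to 6721 in the other Saline libraries. Saline 2, the library with liver transcripts, had the lowest mean level of the 10 genes, and without it the median log2 fold change was 0.17. The part of acinar and liver RNA in these values was not tested.

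**Figure D4:**
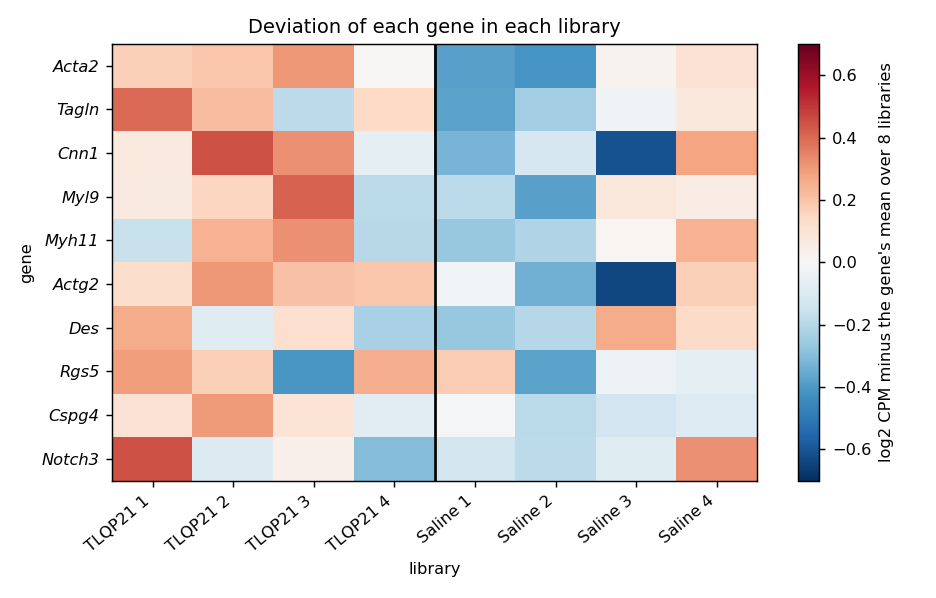
Deviation of each gene's log2 CPM from its mean over the 8 libraries, with genes in rows and libraries in columns, TLQP21 left of the line and Saline right of it. Red is above and blue below the mean of the gene. TLQP21 1 to 3 are red for 8 or 9 of 10 genes, Saline 1 and 2 are blue for 9 and 10, and TLQP21 4 and Saline 4 depart from their groups.

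The balance among the genes was compared as log2 ratios to Acta2 within each library, in CPM. The ratio of Actg2, visceral actin, was -3.38 ± 0.132 in TLQP21 and -3.46 ± 0.437 in Saline (difference 0.08, exact two-sided permutation p = 0.857, n = 4 each). The difference was -0.13 without Saline 3 and 0.21 without Saline 1, and it was -0.19 among Xist and 0.34 among Y libraries. The ratio of Myh11 was -3.09 ± 0.177 in TLQP21 and -2.87 ± 0.0905 in Saline (difference -0.23, exact permutation p = 0.0857). It was lower in TLQP21 whichever library was left out, by -0.28 to -0.16. The ratio of Rgs5 was -0.67 ± 0.428 in TLQP21 and -0.48 ± 0.324 in Saline (difference -0.18, exact permutation p = 0.571), and the difference was 0.02 without TLQP21 3. For Actg2 and Rgs5 the difference was smaller than the SD of either group. For Myh11 it was larger than both SDs, but the groups overlapped. TLQP21 2 (-2.93) and TLQP21 3 (-2.96) lay above Saline 3 (-2.99). With n = 4 each, a difference in the Myh11 ratio was neither established nor excluded. None of the 3 p-values was as small as 0.0286, the smallest that 70 assignments allow.

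Across the 8 libraries, 40 of the 45 pairs of genes had a positive Pearson correlation of log2 CPM, with a median r of 0.43. Acta2 and Myl9 were the closest pair, with r = 0.885 and Spearman's rho = 0.929 over 8 libraries. The exact permutation p was 0.00057 for r and 0.00223 for rho, or 0.0257 and 0.10 adjusted over 45 pairs. Without Saline 1 and Saline 2, the libraries farthest from the median of Acta2, r was 0.880. This was the 1 pair that passed for r, and 0 passed for rho. Cnn1 and Actg2 (r = 0.845) and Myh11 and Myl9 (r = 0.831) came next, both with an exact permutation p of 0.137 for r after adjustment. Without the 2 libraries farthest in the first gene of each pair, r was 0.569 for Cnn1 and Actg2 and 0.773 for Myh11 and Myl9. Rgs5 had the lowest median r with the other 9 genes, at 0.08, and r = 0.08 with Acta2. Its r ran from -0.372 with Myh11 to 0.576 with Tagln. With upper-quartile scaling, with library totals alone or with treatment means subtracted, 0 pairs passed, and the count ran from 0 to 3 over the leave-outs of 1 library. It was 0 without Saline 2, Saline 4, TLQP21 2, TLQP21 3 or TLQP21 4, 2 without TLQP21 1 and 3 without Saline 1 or Saline 3. Of the Xist and the Y libraries there were too few for a correlation within each kind.

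Other genes of the contractile machinery and its control lay on both sides of 0, and 0 genes of the lists below passed the edgeR test over all genes in either direction. The lists were chosen for their known roles. Of 19 tested smooth muscle contraction and cytoskeleton genes, 12 lay above and 7 below 0, with a median log2 fold change of 0.09. Tropomyosin Tpm1 was at 413 ± 34.2 CPM in TLQP21 and 372 ± 18.9 in Saline (0.15, SE 0.0933), and filamin Flna, the most abundant, at 1266 ± 90.0 and 1216 ± 67.0 CPM in TLQP21 and Saline. Kcnmb1, the smooth muscle subunit of a calcium-activated potassium channel, was at 1.66 ± 0.246 CPM in TLQP21 and 1.30 ± 0.344 in Saline. Of 9 tested regulators of the SRF and myocardin axis, 4 lay above and 5 below 0 (median -0.06). Among them the SRF coactivator Mkl1 was at 49.1 ± 5.18 CPM in TLQP21 and 56.6 ± 7.39 in Saline (-0.21, SE 0.118), and its relative Mkl2 at 57.7 ± 9.59 and 52.7 ± 4.66. Myocd, which encodes myocardin itself, had 45 reads over all 8 libraries and was not tested.

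Of 15 further pericyte genes, 9 lay above and 6 below 0 (median 0.13). Pdgfrb, the receptor through which PDGF-B recruits pericytes, was at 68.8 ± 9.46 CPM in TLQP21 and 61.1 ± 7.24 in Saline (0.17, SE 0.121). Heyl, a Notch target of the vessel wall, was at 11.1 ± 1.03 CPM in TLQP21 and 8.65 ± 1.71 in Saline (0.36, SE 0.167). Ednra was at 15.1 ± 2.14 CPM in TLQP21 and 12.75 ± 2.42 in Saline (0.25, SE 0.164). Steap4 was lower in TLQP21, at 35.7 ± 18.1 CPM against 62.15 ± 34.6 in Saline (-0.80, SE 0.436), with 107 CPM in Saline 2. Vtn, which liver also makes, was at 7.76 ± 3.19 CPM in TLQP21 and 37.7 ± 57.4 in Saline, with 123 CPM in Saline 2. The Notch list had 6 of 14 genes above and 8 below 0 (median -0.02). Heyl, given above, and the ligand Jag1 lay above 0, with Jag1 at 152 ± 14.1 CPM in TLQP21 and 141 ± 6.75 in Saline. Notch2, the most abundant gene of the list, was at 268.1 ± 33.5 CPM in TLQP21 and 273.5 ± 30.8 in Saline (-0.03, SE 0.119). Dll4 (-0.19, SE 0.16) and Notch4 (-0.11, SE 0.174) lay below 0 too. The PDGF list had 3 of 6 above 0 (0.03), with the ligand Pdgfb at 143.5 ± 27.8 CPM in TLQP21 and 146 ± 9.69 in Saline. The TGF-beta list, whose ligands drive the myofibroblast state, had 9 of 14 above 0 (0.02), with Tgfb1 at 109 ± 16.2 CPM in TLQP21 and 122.0 ± 21.2 in Saline.

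Of 16 fibroblast genes tested, 7 lay above and 9 below 0 (median -0.02). Fap, a surface protease of activated fibroblasts, was at 15.9 ± 2.31 CPM in TLQP21 and 13.2 ± 0.906 in Saline (0.27, SE 0.134). Lrrc15, a marker of myofibroblastic tumour fibroblasts, was at 29.1 ± 5.29 CPM in TLQP21 and 23.2 ± 4.16 in Saline (0.33, SE 0.174). The matrix protein Postn was at 311 ± 51.9 and 241 ± 48.5 CPM in TLQP21 and Saline (0.37, SE 0.163). Col3a1, a fibrillar collagen and the most abundant gene of the list, was at 2622 ± 484 CPM in TLQP21 and 2786 ± 1140 in Saline (-0.09).

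Marker lists of other cells that share some of the 10 genes were read beside them. Des is also made by skeletal muscle, whose 15 markers summed to 11.1 to 19.4 CPM in TLQP21 libraries and 15.2 to 21.9 CPM in Saline libraries. Of the 7 tested, 1 lay above and 6 below 0 (median -0.22). The most abundant was the fast-muscle troponin Tnni2, at 8.56 ± 2.98 CPM in TLQP21 and 8.56 ± 2.06 in Saline, and the giant protein gene Neb was at 3.25 ± 0.41 CPM in TLQP21 and 4.10 ± 1.23 in Saline. Of the 15, 8 failed the filter on low counts, among them Myh4 with 1 read and the myoglobin gene Mb with 2 reads over all libraries. The 8 cardiac markers summed to 47.1 to 64.8 CPM in TLQP21 and 42.8 to 59.6 CPM in Saline, nearly all from Tnnt2 (50.1 ± 6.77 and 45.8 ± 8.17 CPM in TLQP21 and Saline), while Nppa had no reads and Myh7 had 1. All 3 tested cardiac genes lay above 0 (median 0.13). Cardiac actin Actc1, with 85 reads in all, was at 0.471 ± 0.098 CPM in TLQP21 and 0.221 ± 0.0987 in Saline, and its log2 fold change of 1.09 (SE 0.402) was larger than that of any of the 10 genes. Its unadjusted p by edgeR was 0.0228, and it did not pass after adjustment (0.9999). Gut wall makes Actg2, Des, Myh11 and Cnn1. Of its 10 further markers, which summed to 252.6 to 369.6 CPM in TLQP21 and 268 to 331 CPM in Saline, Hand1 had 4 reads over all libraries. Of the 6 tested, 2 lay above and 4 below 0 (median -0.15). The sum came mostly from Ano1 (198 ± 50.8 CPM in TLQP21 and 172 ± 11.2 in Saline), a chloride channel that is also made outside the gut, and from the homeobox gene Nkx2-3 (78.7 ± 8.98 CPM in TLQP21 and 88.1 ± 18.1 in Saline). The receptor kinase Kit was at 14.02 ± 2.11 CPM in TLQP21 and 16.5 ± 4.13 in Saline. Endothelial genes, which track vessels, had 6 of 12 above 0 (median 0.01) and summed to 357.5 to 513 CPM in TLQP21 and 343 to 566 CPM in Saline. Of 10 tumour epithelial genes, 7 lay above 0 (0.07), of 8 mesothelial genes 7 (0.48) and of 7 adipocyte genes 7 (0.49). Adipocyte genes summed to 109.9, 68.4, 51.0 and 150 CPM in TLQP21 libraries 1 to 4 and 60.1 to 87.5 CPM in Saline libraries. Adipoq, Cidec, Fabp4 and Retn were all highest in TLQP21 4. The mesothelial genes Bnc1, Upk1b, Nkain4 and Lrrn4 were all highest in TLQP21 1. Mesothelial genes summed to 453 to 555 CPM in TLQP21 and 470.2 to 576 in Saline, nearly all from Msln (493.3 ± 43.6 and 480.4 ± 48.1). Of 5 tested Schwann cell genes, 4 lay above 0 (0.05). All 12 acinar genes lay below 0 (-0.47), as did 6 of 7 tested hepatocyte genes (-5.25). The hepatocyte sum was 5573 CPM in Saline 2 and 310.2 to 680 CPM elsewhere. Outside Saline 2 it came nearly all from Apob, at 501 ± 134 CPM in TLQP21 and 467 ± 154 in Saline (0.10). Hpx, Ahsg, Apoa1 and Serpina1b had means of only 0.739 to 0.995 CPM in TLQP21. The part of all these other cells in the levels of the 10 genes was not tested.

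The genes most like 3 of the members in level across the 8 libraries were found among 15528 other tested genes with a mean of at least 1 CPM. The measure was Pearson's r of log2 CPM, given as a description because the genes were picked for it. Among the nearest to Acta2 were Nop2 (r = 0.953), Coq4 (0.952), Trp53 (0.946) and Mrps2 (0.945). Without Saline 1 and Saline 2, the libraries with the lowest Acta2, these values lay between 0.538 and 0.898. Nearest to Myh11 were Tacc2 (r = 0.981), Tead2 (0.971), Cherp (0.962), Thap4 (0.961) and Hdac10 (0.958), and without its 2 farthest libraries they lay between 0.919 and 0.979. Nearest to Rgs5 were Zfp366 (r = 0.936), Hars2 (0.928), Rad51c (0.922), Wdfy2 (0.903) and Rnf150 (0.898), with 0.594 to 0.792 without its 2 farthest libraries. None of the context genes named above was among these genes.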

How the data were processed

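RNA of 8 tumour libraries was measured by RNA sequencing of paired ends of 150 bp, per the labels' protocols. The authors deposited raw counts of reads for each gene, made with HISAT2 2.0.5 and featureCounts 1.5.0-p3 on GRCm38 (mm10), per the submitters' processing notes, which also name DESeq2 1.32.0. Strand setting and annotation release are not given in the sources used here. Groups and replicate numbers came from the titles. Genes were tested with edgeR 4.0.16 (R 4.3.3): default low-count filter (18238 of 54532 genes kept), TMM scaling, quasi-likelihood test without covariates, Benjamini-Hochberg adjustment, threshold 0.05. Log2 CPM used a prior count of 2. DESeq2 1.42.0 and limma 3.58.1 were alternatives, beside other scalings, filters, a replicate block, the Xist split and leave-outs. The edgeR script was first tested on simulated data. Overlaps used GENCODE M21, where 8 of 10 genes had the table's positions. The table names Mrtfa and Mrtfb as Mkl1 and Mkl2 and Ccn2 as Ctgf, and Tf was not matched.

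The genes, lists and tests were chosen with earlier results of these data known. Named from each list were up to 4 tested genes with the smallest p and the most abundant gene, and of these a part is printed. Some genes that this rule or the lists give are not reported here. Untested genes of the lists, other actins and antisense partners were chosen after their values were seen. Depths of 28358465 to 33536087 counts limit precision mainly for Tagln (307 reads in all). Whether each library is a different mouse is not given in the labels. Each group holds libraries with Xist and libraries with Y-linked reads, so more than 1 animal. How many is not known, and the p-values reflect only how far these samples spread. No 2 libraries were the same (chi-square per degree of freedom at least 21.15).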

Additional observations from a re-analysis of the deposited data

Results flagged for a closer look

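Notch3 in Saline 4 stood alone in its group, at 23.8 CPM against a next highest value of 17.9 CPM. This was the 1 lone library found in 26 groups of 4 examined, where chance gives about 1 in 20 groups.

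Des had a log2 ratio of 0.319 among Xist libraries and -0.25 among Y libraries, TLQP21 over Saline, and every library of each kind followed that direction. The difference between the 2 kinds, -0.57 (SE 0.253), was tested after seeing the data and had an adjusted p of 0.8415 in edgeR's test over all genes.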

How the results depend on the processing

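No alternative brought one of the 10 genes past the threshold, and the smallest adjusted p over them was 0.234, for Acta2 with limma voom. Over all genes, DESeq2 called 4 and voom 1, against 0 with edgeR. The same-numbered libraries of the 2 groups had deviations correlated at 0.115, 0.194, 0.271 and -0.0533, so the numbers were not taken to pair them. With the replicate block 0 of the 10 genes were called and their median log2 fold change was 0.217. That median ran from 0.166 to 0.290 over the leave-outs of 1 library, and was 0.361 among Xist and 0.0123 among Y libraries, where 5 genes lay above 0. Among Y libraries the sign was reversed for Tagln (-0.0484), Myh11 (-0.0654), Des (-0.25), Rgs5 (-0.0245) and Notch3 (-0.253). Leaving out 1 library gave -0.0567 to 0.129 for Des, with reversed values of -0.0481, -0.0317, -0.0567 and -0.00117, and -0.11 to 0.176 for Notch3, with reversed values of -0.00371 and -0.11. Genes without overlap numbered 1 with upper-quartile scaling (1.1% of all genes, higher) and 1 with library totals (1.01%), and 0 to 2 over the leave-outs (1.26 to 3.04%). The log2 difference of the Actg2 to Acta2 ratio ran from -0.132 to 0.209 over the leave-outs and was -0.19 among Xist and 0.341 among Y libraries, and that of Rgs5 to Acta2 ran from -0.297 to 0.0218. Pairs of genes that passed numbered 0 with upper-quartile scaling, library totals or treatment means subtracted, and 0 to 3 over the leave-outs. The cause of these shifts was not tested. Depth limits mainly Tagln, with 28 to 51 reads per library.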
